A study of Homo sapiens with 9 samples.

Results

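The transcripts described here are those of 10 genes of the YAP/TEAD system, chosen by name from a count table of 60642 gene names: the coactivators YAP1 and WWTR1 (the gene of TAZ), the DNA-binding partner TEAD1, the kinase LATS2 and the target or feedback genes CCN1, CCN2, ANKRD1, AMOTL2, AJUBA and AXL. All 10 were listed, CCN1 and CCN2 under these names, and all 10 passed the filter on low counts, which left 18574 genes for testing. They were measured by RNA-seq in SNU-398, a hepatocellular carcinoma (HCC) cell line grown in RPMI1640 with serum. The groups were 3 libraries each of the vector control, whose genotype is labelled wild type, of cells overexpressing EMX1-FL and of cells overexpressing EMX1-X1, isoforms of a homeobox transcription factor. All 3 groups were stable lentiviral lines screened with puromycin, and the labels do not say whether the libraries of a group came from separate cultures, so the p-values measure only the spread between these libraries. Gene counts do not separate the EMX1 isoforms, nor the introduced EMX1 from the endogenous gene.

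In the Hippo pathway a kinase cascade that ends in LATS1 and LATS2 phosphorylates YAP and TAZ, which are then held in the cytoplasm or degraded. Unphosphorylated YAP and TAZ enter the nucleus, bind TEAD factors and switch on genes such as CCN1, CCN2 and ANKRD1. The pathway is known for its control of liver size and is often altered in HCC. Because it acts mainly through phosphorylation and location of the proteins, a transcript level of YAP1 or WWTR1 does not measure the activity of its protein.

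EMX1 was higher in every overexpressing library. Its mean was 10.7 CPM (counts per 1000000 read pairs, on TMM-normalized library sizes) in the vector control, 177 in EMX1-FL (log2 fold change 4.04, edgeR adjusted p = 0.00121) and 242 in EMX1-X1 (4.50, adjusted p = 0.00047). The library totals were between 21562703 and 25197970 counted read pairs. The first principal component, with 39.6% of the variance, set 4 libraries, here cluster B, apart from the other 5, cluster A. Cluster B held EMX1-X1 2 and 3, EMX1-FL 1 and the third vector control library. GC content was high (median 62%) in the 500 genes highest in cluster B and low (median 39.3%) in the 500 highest in cluster A, and EMX1 itself was higher in the cluster B libraries of all 3 groups. Of the markers of liver cells, 8 hepatocyte genes summed to between 0.569 and 3.40 TPM, the length-corrected counts scaled to a sum of 1000000. AFP had no count in any library, whereas GPC3, also a marker of hepatoma or fetal liver, was between 14.5 and 26.7 TPM. The 5 mesenchymal genes VIM, ZEB1, CDH2, FN1 and SPARC summed to between 750 and 1192 TPM. Most of this sum was VIM, with a mean of 846 TPM in the vector control, where ZEB1 (0.384 TPM) and SPARC (0.611 TPM) were low. Of the 5 mesenchymal genes, ZEB1, CDH2 and FN1 were higher at an edgeR p under 0.05 in EMX1-FL than in the vector control. In EMX1-X1, CDH2 and FN1 were. Of all genes tested, 3.97% were higher at this p in EMX1-FL and 5.95% in EMX1-X1. The EMX1-FL and vector control libraries overlapped for ZEB1 (edgeR adjusted p = 0.837) and CDH2 (0.7) but not for FN1 (0.216). ZEB1 had 13 to 70 read pairs per library in these groups. Within cluster B, with 1 library of each group, the log2 differences were 0.27 for ZEB1, -0.06 for CDH2 and 0.38 for FN1. ALB, the only hepatocyte marker with enough counts to test, was a DEG in both lines (log2 fold change 1.46, edgeR adjusted p = 0.467 in EMX1-FL, and 1.11, adjusted p = 0.576 in EMX1-X1), on 10 to 53 read pairs per library. The fibroblast marker DCN was lower at an edgeR p under 0.05 in both lines (-0.61, adjusted p = 0.422, and -0.46, 0.575). Of all genes tested, 1.83% were lower at this p in EMX1-FL and 2.16% in EMX1-X1. COL1A1 (0.67, adjusted p = 0.534) and the epithelial marker CDH1 (0.75, 0.584) were higher in EMX1-X1, but the CDH1 groups overlapped. These differences were 0.24 and 0.24 within cluster A and 0.84 and 1.16 within cluster B. Of 4 fibroblast markers, 2 had a positive and 2 a negative value in each line. The 4 fibroblast markers summed to between 472 and 981 TPM, and 3 endothelial and 3 leukocyte markers each summed to under 1 TPM. The part of these markers in the results below was not tested.

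TEAD factors bind a short DNA motif whose core is GGAATG, and the promoters of CCN2 and ANKRD1, the members with the largest differences in EMX1-FL cells, are shown with this motif in capitals. They come from RefSeq (GRCh38.p14) and run from 250 bases before to 50 bases after the annotated start, on the strand of the gene, which is the minus strand for both. The CCN2 promoter is chr6:131951323-131951622. The ANKRD1 promoter is chr10:90921038-90921337, and the gene as listed in the count table begins further upstream, within that window.
CCN2: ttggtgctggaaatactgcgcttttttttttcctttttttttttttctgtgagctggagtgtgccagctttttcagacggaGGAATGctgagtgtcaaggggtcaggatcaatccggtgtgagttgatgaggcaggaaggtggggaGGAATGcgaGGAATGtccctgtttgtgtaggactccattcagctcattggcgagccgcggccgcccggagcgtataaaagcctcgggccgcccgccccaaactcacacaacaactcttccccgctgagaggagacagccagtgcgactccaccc
ANKRD1: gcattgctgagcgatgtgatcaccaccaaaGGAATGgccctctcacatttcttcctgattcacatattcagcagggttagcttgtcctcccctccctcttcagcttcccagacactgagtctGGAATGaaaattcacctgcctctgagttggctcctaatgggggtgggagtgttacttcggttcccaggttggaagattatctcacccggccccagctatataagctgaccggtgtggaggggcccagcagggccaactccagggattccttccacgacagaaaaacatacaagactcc
The CCN2 promoter held 3 matches, which began 169, 104 and 95 bases before the start, and the ANKRD1 promoter held 2, which began 220 and 128 bases before it.

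RefSeq promoters, 12 in all, were matched to 8 of the 10 members (all but TEAD1 and CCN1). GGAATG, searched on both strands, was found in 7 of the 12 promoters, those of 7 members. YAP1, LATS2 and the second listed starts of AMOTL2, AJUBA and AXL had 1 match each, and the promoters of WWTR1 had none. Among all 35116 RefSeq promoters of the same length, 4928 held at least 1 match and 86.0% held none, while 1.37% held at least 2 and 0.128% at least 3. The homeodomain core TAATTA, also searched on both strands, was found in 0 of the 12 promoters and in 4.84% of all promoters. A match describes the letters only, and none of these data measured binding.

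On a length-corrected scale, the members differed widely in level. In the vector control the mean level was 129 TPM for YAP1, followed by AJUBA (54.7), CCN1 (51.2), AXL (50.4) and AMOTL2 (48.8). LATS2 (35.3 TPM), TEAD1 (32.7) and WWTR1 (23.2) were lower, CCN2 was at 8.89 TPM and ANKRD1 at 0.917. The ranges of the 3 libraries overlapped between neighbours from AJUBA to AMOTL2 and from LATS2 to WWTR1, but not at the other steps. YAP1 lay above 94.4% of the genes tested and ANKRD1 above 10.6%. In EMX1-FL cells the order of the lowest members stayed, with CCN2 at 23.0 TPM and ANKRD1 at 4.64 TPM, while CCN1 took the place after YAP1 at 92.0 TPM. In EMX1-X1 cells CCN1 reached 110 TPM, in a range that overlapped that of YAP1 (135 TPM), and CCN2 and ANKRD1 were at 17.8 and 1.60 TPM.

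**Figure D1:**
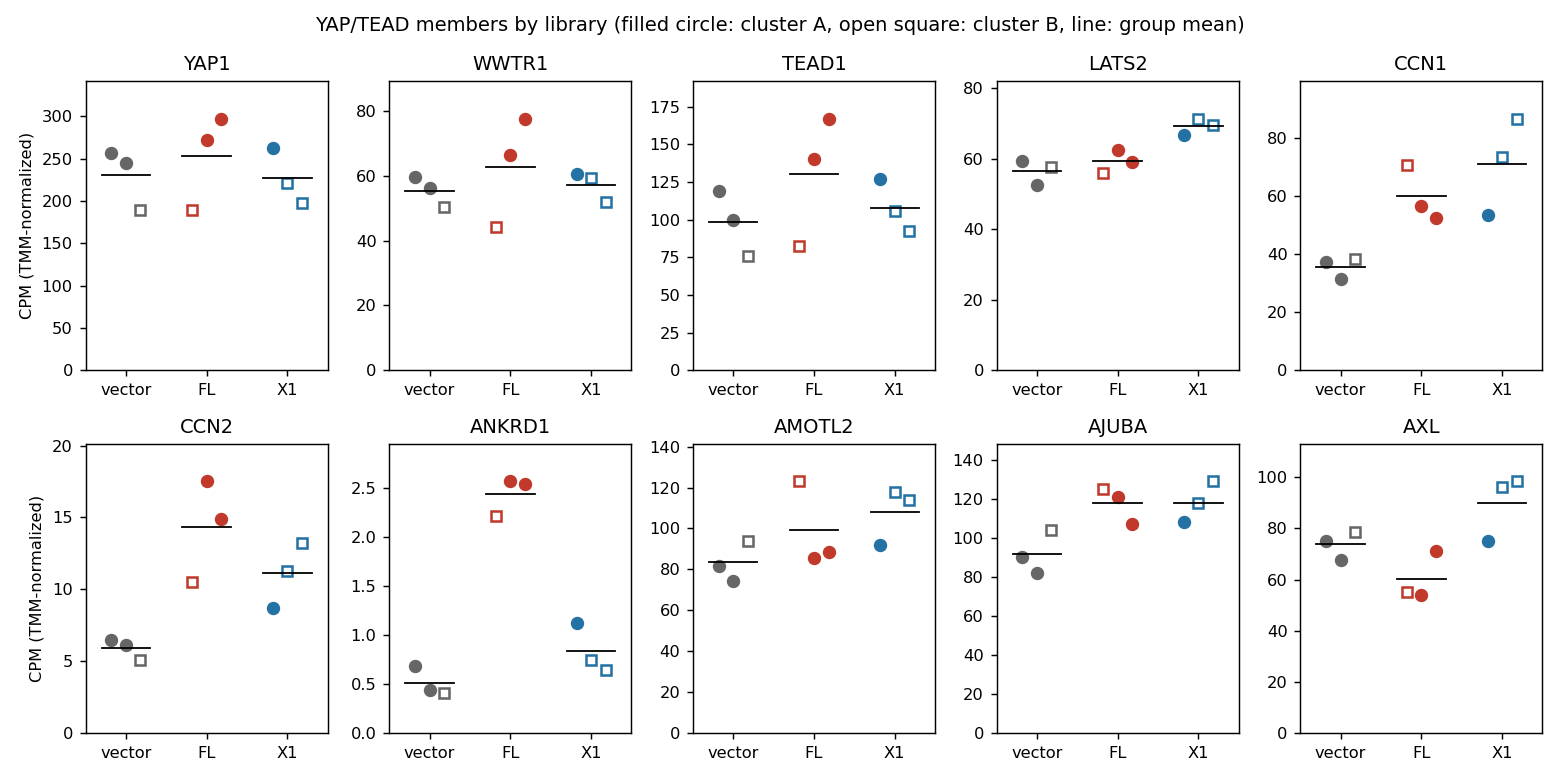
CPM of each member in each library (points, 3 per group), with the group mean as a line, on axes that start at 0; filled circles are libraries of cluster A and open squares those of cluster B. ANKRD1 in EMX1-FL cells lies between 2.22 and 2.57 CPM, above all other libraries, while YAP1, WWTR1 and TEAD1 follow the clusters.

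In EMX1-FL cells, ANKRD1 and CCN2 rose past the threshold for differentially expressed genes (DEGs), which asks for a log2 fold change of at least 1 in size with a p, not adjusted, under 0.05, and no member fell. In bulk RNA, more cells that express a gene and more RNA per cell cannot be told apart. CCN1 and AJUBA were higher at a p under 0.05 with smaller folds, and YAP1, WWTR1, TEAD1, LATS2, AMOTL2 and AXL did not pass the test. None of the 10 members passed an adjusted p under 0.05 in the main edgeR fit (TMM factors, group only). ANKRD1 and CCN2 passed it in DESeq2 and in some edgeR alternatives, among them the fit with the cluster of libraries as a covariate. CCN1 passed it in 2 of 22 alternative fits, at a fold below the threshold. So 2 of 10 members were DEGs, all higher, where 2.04% of all genes tested were higher and 0.382% lower DEGs, and 0.0700% passed the adjusted threshold with the same fold.

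ANKRD1 encodes a nuclear ankyrin repeat protein, best known from heart muscle, and is a widely used readout of YAP. It was at 0.685, 0.436 and 0.412 CPM in the vector control libraries and at 2.22, 2.57 and 2.54 CPM in the EMX1-FL libraries. These values rest on 10 to 16 read pairs per library in the vector control and 50 to 61 in EMX1-FL, and the groups did not overlap. The log2 fold change was 2.25 (95% interval 1.42 to 3.07), a fold of 4.74, with an edgeR p of 7.46e-05 before adjustment and 0.0627 after it, the 20th smallest among all genes (exact permutation p = 0.1). Between libraries of the same cluster, the difference of the mean log2 CPM was 2.06 in cluster A and 2.21 in cluster B, where each group has 1 library. Over 22 alternative fits the log2 fold change was between 1.57 and 2.51 and the adjusted p between 8.04e-05 and 0.365, under 0.05 in 7 of them. With the cluster of libraries as a covariate the edgeR adjusted p was 0.00784, and without EMX1-FL replicate 1 it was 0.0332.

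CCN2, formerly CTGF, is a secreted matricellular protein that promotes matrix production. Its level was 6.47, 6.11 and 5.07 CPM in the vector control libraries and 10.5, 17.5 and 14.9 CPM in the EMX1-FL libraries. The lowest EMX1-FL value, from the library in cluster B, was still above every vector control value. The log2 fold change was 1.28 (95% interval 0.74 to 1.81), a fold of 2.43, with an edgeR p of 0.00023 before adjustment and 0.0892 after it (exact permutation p = 0.1). Within cluster A the difference was 1.35 and within cluster B, with 1 library of each group, 1.03. The adjusted p was under 0.05 in 5 of 22 alternative fits, with a log2 fold change between 1.09 and 1.46. Of the exon bases of CCN2, 8.3% overlap an antisense gene, and the counting command in the header names no strand option.

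CCN1, formerly CYR61, is a secreted matricellular protein of the same family as CCN2 and binds integrins at the cell surface. It was at 37.2, 31.4 and 38.3 CPM in the vector control and at 70.8, 56.7 and 52.4 CPM in EMX1-FL, without overlap. Its log2 fold change of 0.75 (95% interval 0.29 to 1.21, edgeR adjusted p = 0.349) was below the fold threshold. The edgeR adjusted p of CCN1 was 0.00895 with the cluster of libraries as a covariate and 0.0196 with an offset for GC content. In the remaining alternative fits it was not under 0.05. AJUBA, a LIM domain protein that binds and restrains LATS kinases, was between 82.1 and 104 CPM in the vector control and between 107 and 125 CPM in EMX1-FL. Its log2 fold change was 0.36, with an edgeR p of 0.0465 before adjustment and 0.855 after it (exact permutation p = 0.1). Among the alternative fits the unadjusted p was between 0.00148 and 0.191. At any fold, 4 of 10 members were higher at a p under 0.05, against 3.97% of all genes higher and 1.83% lower. The same 4 members were higher without overlap between the groups, against 5.36% of all genes (5.14% were lower without overlap). For each of these 4 the two-sided exact permutation p was 0.1, the smallest that 3 libraries against 3 allow.

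The median log2 fold change of the 10 members was 0.31, against 0.045 over all genes tested. The remaining 6 ranged from a log2 fold change of -0.30 to 0.40. AXL, a receptor tyrosine kinase for GAS6, was the only member with a negative value, -0.30 (95% interval -0.69 to 0.10). AXL was at 75.2, 67.6 and 78.5 CPM in the vector control and at 55.2, 53.9 and 71.2 CPM in EMX1-FL, and the groups overlapped. LATS2, the kinase that phosphorylates YAP and is itself a YAP target, was between 52.4 and 59.4 CPM in the vector control and between 55.9 and 62.5 CPM in EMX1-FL. AMOTL2, an angiomotin that binds YAP at cell junctions, was between 74.3 and 94.1 CPM in the vector control and between 85.8 and 123 CPM in EMX1-FL. Neither separated the groups.

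The factors themselves differed between libraries of a group more than between groups. YAP1 was at 257, 245 and 189 CPM in the vector control, 189, 272 and 297 CPM in EMX1-FL and 263, 221 and 197 CPM in EMX1-X1. TEAD1 was at 119, 100 and 76.1 CPM in the vector control, 82.6, 140 and 167 CPM in EMX1-FL and 127, 106 and 92.5 CPM in EMX1-X1. For both genes, and for WWTR1, the cluster B libraries were lower than those of cluster A in all 3 groups, by 0.33 to 0.59 on the log2 scale for YAP1, 0.36 to 0.89 for TEAD1 and 0.13 to 0.70 for WWTR1. The 3 genes have a GC content between 40.9% and 43.5% in their longest transcript, and the part of GC content in these differences was not tested. ANKRD1, with a GC content of 43.3%, was also lower in cluster B in all 3 groups, whereas CCN1, AMOTL2 and AJUBA, between 50.3% and 56.7%, were higher in cluster B in all 3. LATS2, CCN2 and AXL have a GC content in the same range, between 51.5% and 53.9%, and were lower in cluster B in 1, 2 and 1 of the 3 groups.

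Against the vector control, the log2 fold change of YAP1 was 0.13 in EMX1-FL (95% interval -0.31 to 0.58) and -0.02 in EMX1-X1 (-0.47 to 0.42). That of WWTR1 was 0.18 (-0.27 to 0.64) and 0.05 (-0.40 to 0.51), and that of TEAD1 was 0.40 (-0.16 to 0.97) and 0.14 (-0.43 to 0.70). The sign of the YAP1 difference changed with single libraries or with the treatment of GC content. YAP1 shares 10.1% and WWTR1 9.7% of its exon bases with antisense genes.

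**Figure D2:**
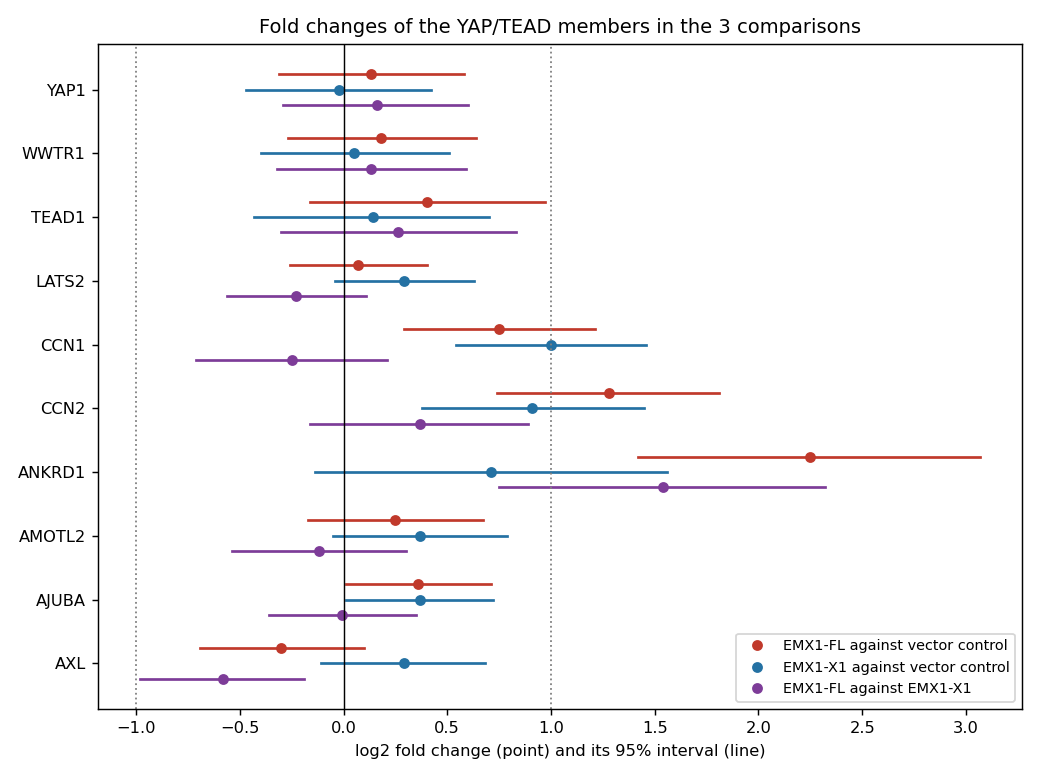
Log2 fold change (point) and 95% interval (line) of the 10 members in the 3 comparisons, with dotted lines at a log2 fold change of -1 and 1. The ANKRD1 interval runs from 1.42 to 3.07 in EMX1-FL against the vector control, while every interval of YAP1, WWTR1 and TEAD1 spans 0.

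In EMX1-X1 cells, CCN1 reached the DEG threshold, CCN2 and AJUBA were higher at a p under 0.05 with smaller folds, and ANKRD1 did not pass the test. CCN1 was the only DEG among the 10 members, where 1.95% of all genes tested were higher and 0.544% lower DEGs. None of the members passed an adjusted p under 0.05 together with the fold threshold in edgeR or in DESeq2, and 0.00538% of all genes did in edgeR. At any fold 3 of 10 members were higher at a p under 0.05, against 5.95% of all genes higher and 2.16% lower.

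CCN1 was at 53.6, 73.6 and 86.8 CPM in EMX1-X1, above its vector control range of 31.4 to 38.3 CPM. The log2 fold change was 1.00 (95% interval 0.54 to 1.46, edgeR adjusted p = 0.310), so the call lies at the fold threshold itself. The adjusted p was under 0.05 in 4 of 22 alternative fits, among them DESeq2 (0.00879), where the log2 fold change was 0.98. It was lost in 12 of 22 alternative fits, in which the p stayed under 0.05 and the log2 fold change was no higher than 1.00. Within cluster A, where EMX1-X1 has 1 library, the difference was 0.65, and within cluster B, where the vector control has 1, it was 1.06. Leaving out vector control replicate 2, EMX1-FL replicate 2, EMX1-X1 replicate 2 or EMX1-X1 replicate 3 ended the call, with log2 fold changes of 0.90, 0.99, 0.98 and 0.84.

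CCN2 was at 8.70, 11.3 and 13.2 CPM in EMX1-X1, all above the vector control. Its log2 fold change of 0.91 (95% interval 0.38 to 1.45, edgeR adjusted p = 0.446) passed 1 only when EMX1-X1 replicate 1 was left out, with 1.06. ANKRD1 was at 1.12, 0.748 and 0.646 CPM, from 16 to 27 read pairs per library, and its lowest value lay under the highest of the vector control (0.685 CPM). Its log2 fold change was 0.71 (95% interval -0.14 to 1.56), an interval that held both 0 and the CCN2 value.

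AJUBA was between 108 and 129 CPM in EMX1-X1, above its range in the vector control (log2 fold change 0.37, edgeR adjusted p = 0.605), and the unadjusted p lay above 0.05 in some of the alternative fits. LATS2 was at 66.7, 71.3 and 69.6 CPM, also above every vector control library, but with a log2 fold change of only 0.29 (95% interval -0.04 to 0.63). The values of AMOTL2 were between 91.7 and 118 CPM and those of AXL between 75.2 and 98.4 CPM, and both overlapped the vector control. In all, 4 of 10 members (CCN1, CCN2, AJUBA and LATS2) were higher without overlap, against 8.03% of all genes higher and 6.67% lower. The median log2 fold change was 0.33, against 0.010 over all genes tested.

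Between the isoforms, ANKRD1 and AXL passed a p under 0.05, in opposite directions, and the other 8 members did not. ANKRD1 was higher in EMX1-FL than in EMX1-X1 cells, with the lowest EMX1-FL library at 2.22 CPM and the highest EMX1-X1 library at 1.12 CPM. The log2 fold change was 1.54 (95% interval 0.75 to 2.32), the 8th smallest p of the comparison, but the edgeR adjusted p was 0.611. In 22 alternative fits the log2 fold change was between 1.13 and 1.80 and the adjusted p between 0.0446 and 0.991, under 0.05 only without EMX1-FL replicate 1. Within cluster A the difference was 1.13 and within cluster B 1.56, each with 1 library on 1 side.

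AXL was lower in EMX1-FL than in EMX1-X1 cells, where its lowest library was at 75.2 CPM against a highest EMX1-FL library of 71.2 CPM. The log2 fold change was -0.58 (95% interval -0.98 to -0.19, edgeR adjusted p = 0.611), with -0.28 within cluster A and -0.82 within cluster B. Against the vector control, AXL passed no test in either line, with a 95% interval of -0.69 to 0.10 in EMX1-FL and -0.11 to 0.68 in EMX1-X1. For CCN2 the difference between the isoforms was 0.37 (95% interval -0.16 to 0.89) and for CCN1 it was -0.25 (-0.71 to 0.21). The EMX1-FL range of LATS2, 55.9 to 62.5 CPM, lay under its EMX1-X1 range, with a log2 fold change of -0.23 (-0.56 to 0.11).

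Of the members, 1 was a DEG between the isoforms, ANKRD1, where 0.748% of all genes were higher and 0.668% lower DEGs in EMX1-FL. At a p under 0.05 and any fold, 1 member was higher and 1 lower, against 2.98% and 4.66% of all genes. Without overlap 1 member was higher and 2 were lower (AXL and LATS2), against 3.89% and 4.49%. None passed the adjusted threshold in the main edgeR fit or in DESeq2, as did 0% of all genes in that edgeR fit. The median log2 fold change of the members was 0.06, against 0.021 over all genes tested. The 2 comparisons with the vector control share its 3 libraries, so their values are given side by side and were not correlated.

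Other partners of YAP and TAZ were read from a list of 10 coactivators, TEADs and VGLL cofactors. Among the TEADs, TEAD4 had the highest mean level in the vector control, 64.9 TPM or 42.7% ± 5.51 (SD, n = 3) of the summed TEAD level. TEAD1 held 21.4% ± 5.60, TEAD2 19.8% ± 0.236 and TEAD3 16.2% ± 0.454 (SD, n = 3). YAP1 made up 84.6% ± 1.12 of the summed level of YAP1 and WWTR1 in the vector control, 84.4% ± 0.742 in EMX1-FL and 84.0% ± 1.08 in EMX1-X1 (SD, n = 3). The division between the coactivators therefore moved by less than 1 SD, whereas the TEAD1 share in EMX1-FL ranged from 14.1% in the cluster B library to 34.8%. TEAD2 shares 10.7% of its exon bases with CD37.

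VGLL1 and VGLL2, which compete with YAP for TEADs, were too low to test, with 0 to 3 read pairs per library. VGLL3 passed the DEG threshold in EMX1-FL cells (log2 fold change 1.85, edgeR adjusted p = 0.837), on 8 to 43 read pairs per library against 2 to 16 in the vector control. The VGLL3 groups overlapped, and the call was lost with the cluster as a covariate. The difference was 2.82 within cluster A and -0.76 within cluster B, where each group has 1 library. VGLL4, a repressor of TEADs, was at 30.9 TPM in the vector control, 31.3 in EMX1-FL and 36.9 in EMX1-X1. TEAD3 was higher in EMX1-X1 at a p under 0.05 (log2 fold change 0.60, edgeR adjusted p = 0.578), by 0.14 within cluster A and 0.69 within cluster B.

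**Figure D3:**
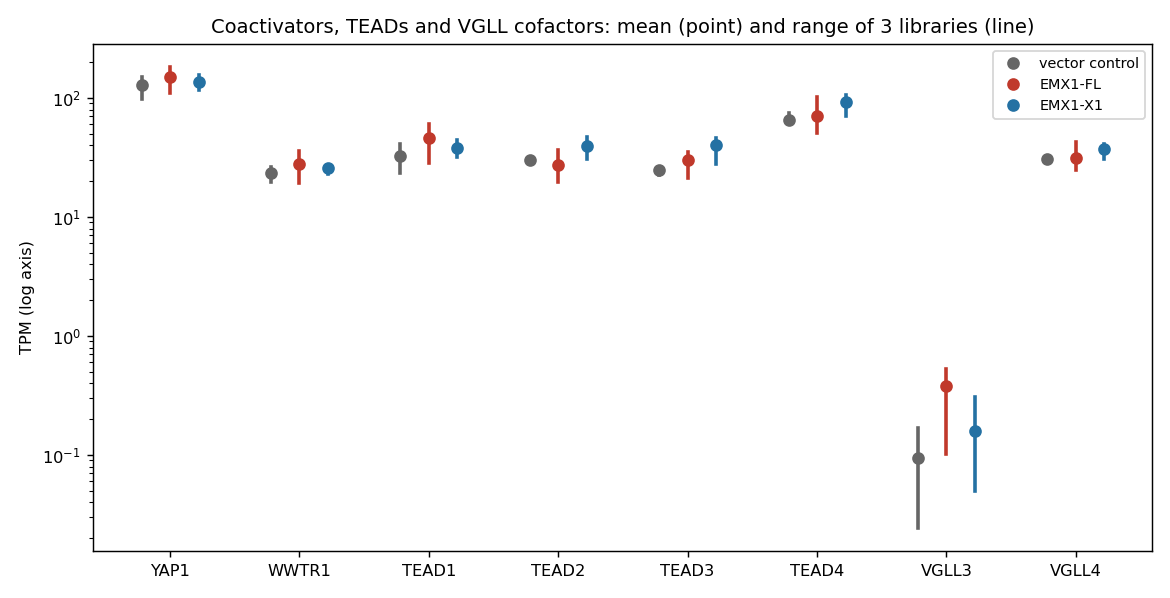
Level in TPM, on a log axis, of the coactivators, the TEADs and the tested VGLL cofactors: mean (point) and range (line) of the 3 libraries of each group. YAP1 lies highest, at 129 TPM in the vector control, TEAD4 is the highest TEAD, and VGLL3 lies under 1 TPM in all groups.

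In a list of the Hippo kinase cascade and its inputs, which holds the members LATS2, AMOTL2 and AJUBA, no gene was a DEG in any comparison. All 23 genes of this list, from the kinases STK3 and STK4 and the scaffold SAV1 to NF2, angiomotins, Ajuba family members and the atypical cadherins FAT4 and DCHS1, were tested. In EMX1-FL cells 1 of 23 was higher at an edgeR p under 0.05 (AJUBA) and none lower, near the share over all genes (3.97% higher), with log2 fold changes from -0.30 to 0.40 and a median of 0.06. In EMX1-X1 cells 3 of 23 were higher (AJUBA, WTIP and DCHS1) and none lower, where 5.95% of all genes were higher, with a median of -0.05. WTIP, a relative of AJUBA, had a log2 fold change of 0.82 in EMX1-X1, which was -0.05 within cluster A and 1.06 within cluster B. Between the isoforms 0 of 23 passed. DESeq2 and limma gave no DEG in this list either.

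A wider list of 22 YAP/TAZ targets known from many cancers, which holds 6 of the members, had 21 genes with enough counts; CCDC80 was too low. In EMX1-FL cells 14 of 21 had a positive log2 fold change, 7 passed a p under 0.05 and all 7 were higher, where 3.97% of all genes were higher and 1.83% lower. ANKRD1, CCN2 and IGFBP3 were DEGs (2.04% of all genes were higher DEGs), and the median log2 fold change was 0.19 against 0.045 over all genes. IGFBP3, a secreted binding protein of insulin-like growth factors, was at 0.343 to 0.960 CPM in the vector control and 1.39 to 2.44 CPM in EMX1-FL (log2 fold change 1.78, edgeR adjusted p = 0.223). These values rest on 8 to 22 and 33 to 55 read pairs per library, and the IGFBP3 call was lost with limma on log2(TPM + 1). The others at a p under 0.05 were CCN1, the kinase NUAK2 (0.70), the stress gene GADD45A (0.58) and the membrane protein MYOF (0.53), each with its log2 fold change.

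In EMX1-X1 cells 16 of 21 targets had a positive log2 fold change, 7 were higher at a p under 0.05 and none lower, where 5.95% of all genes were higher and 2.16% lower. The median was 0.29, against 0.010 over all genes. CCN1 and IGFBP3 were DEGs (1.95% of all genes were higher DEGs), IGFBP3 with a log2 fold change of 1.12 (edgeR adjusted p = 0.575) and 1.17 to 1.45 CPM. On 28 to 36 read pairs per library, this IGFBP3 call was also lost with limma on log2(TPM + 1). NUAK2 (0.66), GADD45A (0.58) and MYOF (0.56) had log2 fold changes close to those in EMX1-FL. Both sets were taken against the same 3 vector control libraries, so they are not independent. FOXF2, a forkhead factor, was higher in EMX1-X1 (0.71, edgeR adjusted p = 0.583). In FOXF2 the difference was 0.16 within cluster A and 0.76 within cluster B. None of the 21 passed the adjusted threshold in the main edgeR fit in any comparison, whereas ANKRD1 and CCN2 passed it in EMX1-FL with DESeq2. Between the isoforms, ANKRD1 was higher and AXL and FOXF2 were lower in EMX1-FL at a p under 0.05, with a median over the list of -0.05 against 0.021.

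**Figure D4:**
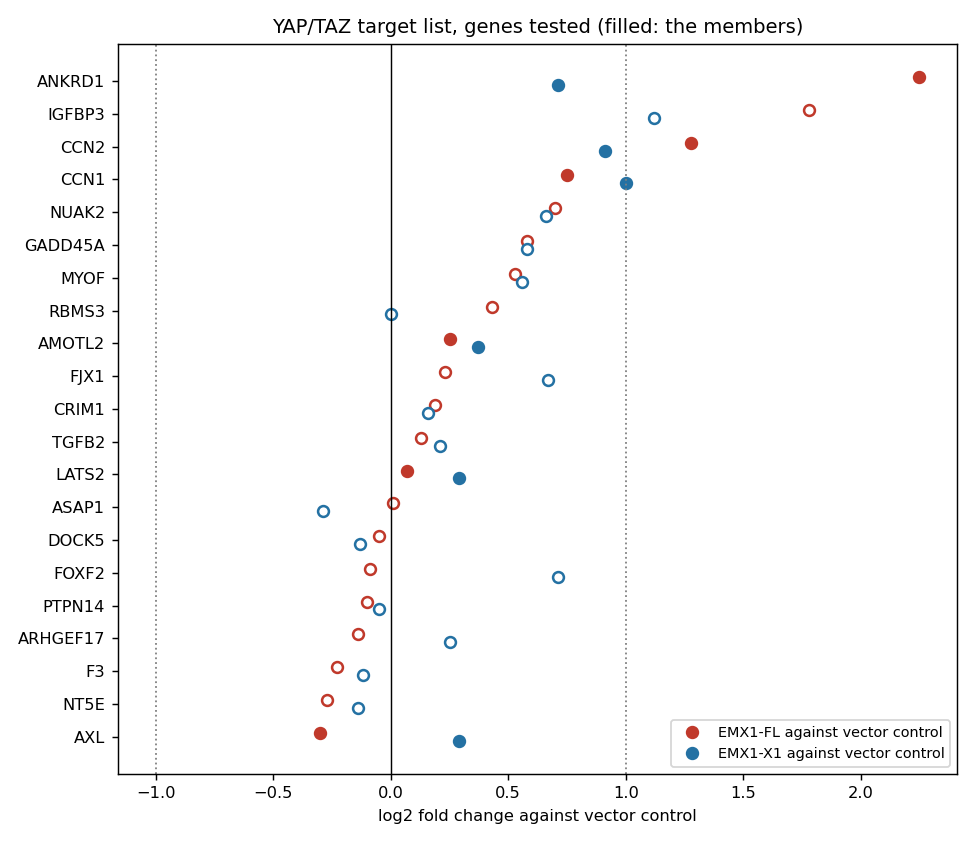
Log2 fold change of the 21 tested genes of the YAP/TAZ target list in EMX1-FL (red) and EMX1-X1 (blue) against the vector control, with filled points for the members and dotted lines at -1 and 1. ANKRD1, IGFBP3 and CCN2 lie above 1 in EMX1-FL, whereas AXL lies at -0.30 there and at 0.29 in EMX1-X1.

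Among 6 textbook targets outside that list, 4 were tested. In EMX1-FL 2 of the 4 had a positive and 2 a negative log2 fold change, with a median of 0.27 against 0.045 over all genes. In EMX1-X1 all 4 were positive, with a median of 0.39 against 0.010. At a p under 0.05, 2 of 4 were higher and none lower in each line. Of all genes, 3.97% were higher in EMX1-FL and 5.95% in EMX1-X1. THBS1, the matrix protein thrombospondin-1, was 1 of the 2 in both lines. Its log2 fold changes were 0.76 for the EMX1-FL line (edgeR adjusted p = 0.269) and 0.59 for the EMX1-X1 line (adjusted p = 0.536), so it was not a DEG. AREG and EDN1 were too low to test.

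Within the CCN family 4 of 6 genes were tested, and CCN3 and CCN5 were too low. CCN4, also named WISP1, was a DEG in EMX1-FL, at 2.96 to 4.13 CPM against 0.642 to 1.88 CPM in the vector control (log2 fold change 1.42, edgeR adjusted p = 0.272). These values rest on 64 to 98 and 15 to 43 read pairs per library, and the call was lost with limma on log2(TPM + 1). With CCN2, 2 of 4 were higher DEGs in EMX1-FL, against 2.04% of all genes. In EMX1-X1 cells CCN4 was at 1.90 to 2.16 CPM, with a log2 fold change of 0.66 that did not pass the test. The log2 fold changes of CCN6 were -0.02 in EMX1-FL and -1.13 in EMX1-X1 (edgeR adjusted p = 0.641), on 5 to 30 read pairs per library.

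AP-1 binds together with TEADs at many enhancers. The median log2 fold change of its 7 subunits was -0.35 for the EMX1-FL line and 0.21 for the EMX1-X1 line, against 0.045 and 0.010 over all genes. FOS was lower at a p under 0.05 in both lines, where 1.83% of all genes were lower in EMX1-FL and 2.16% in EMX1-X1. It was at 12.2 to 13.6 CPM in the vector control, 6.93 to 7.75 CPM in EMX1-FL (log2 fold change -0.83, edgeR adjusted p = 0.163) and 8.61 to 9.97 CPM in EMX1-X1 (-0.48, adjusted p = 0.568). JUNB was a DEG in EMX1-X1 (log2 fold change 1.03, edgeR adjusted p = 0.583), but the difference was 0.06 within cluster A and 1.24 within cluster B, and the call was lost with the cluster as a covariate. FOSL2 was higher in EMX1-X1 at a p under 0.05, with a log2 fold change of 0.56 (edgeR adjusted p = 0.575), but the groups overlapped. Its difference was 0.25 within cluster A and 0.56 within cluster B. So 2 of 7 subunits were higher at a p under 0.05 in EMX1-X1, against 5.95% of all genes. As a higher DEG there was 1 of 7, against 1.95% of all genes.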

How the data were processed

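RNA-seq libraries of SNU-398 cells, 3 per group by the sample labels, were analysed. The authors trimmed the reads with fastp, aligned them with STAR to hg38 and deposited a table of raw, unnormalized counts, in read pairs for each gene name. The header of the count table names featureCounts 2.0.1 with Ensembl release 99, the submitters' processing notes name version 2.0.6, and the methods name RSEM. A second deposited table holds TPM on a log2 scale, as log2(TPM + 1), which was recomputed from the counts and the deposited gene lengths in bases, a unit of another kind, to within 5e-06. TPM were used to compare levels between genes.

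The test was that of edgeR 4.0.16 in R 4.3.3 (TMM, filterByExpr, quasi-likelihood F test, 9 libraries, group only) and Benjamini-Hochberg adjustment over 18574 genes. CPM used TMM-normalized library sizes, and log2 CPM within clusters used a prior count of 2. DEGs were called at the threshold of the study's methods. The standard error behind each 95% interval came from the F statistic. The library totals were at least 21562703 read pairs. Precision depended on the count of a gene and on the spread between libraries. In EMX1-FL against the vector control, the standard error was 0.26 for TEAD1 (1847 to 3619 read pairs per library) and 0.25 for CCN2 (123 to 415). GC content came from GENCODE release 29 and had values for 97.2% of the genes tested. The fit was tested on simulated data. DESeq2 1.42.0 and limma 3.58.1 were alternatives, as were other scalings, filters and samples.

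The genes named are all members, the TEAD and VGLL genes, genes of the pathway lists past the DEG threshold and EMX1. Other genes were named after their values were seen. Members and lists were chosen with earlier results of these data known. Some results that the lists cover are not reported here.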

Additional observations from a re-analysis of the deposited data

How the results depend on the processing

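The log2 fold changes of the 10 members in 3 comparisons were recomputed under 22 alternatives, 660 values in all, of which 619 kept their direction and their side of the DEG threshold. The CCN1 call in EMX1-X1 was lost in 12 alternatives and CCN2 gained a call there in 1. The count of members past the threshold in EMX1-X1, 1, was 0 with RLE factors, upper-quartile factors, DESeq2, no filter on low counts, at least 10 counts in every library, the cluster of libraries as covariate, the GC offset, and the GC offset with the replicate block, and 0 to 2 when each library was left out. With the p alone it was 3 there, 4 in EMX1-FL and 2 between the isoforms.

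The replicate numbers did not pair the libraries: same-numbered libraries had mean residual correlations of -0.135, 0.110 and -0.352 in the 3 comparisons, and 0 of 9 libraries correlated best with their own number. With the replicate block, the paired fit, the EMX1-FL log2 fold changes were 2.29 for ANKRD1 (edgeR adjusted p = 0.335) and 1.24 for CCN2 (0.361), that of CCN1 in EMX1-X1 was 1.00, and no call of a member changed.

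Signs turned in 28 values, all of members that passed no fold threshold. YAP1 in EMX1-X1 (main value -0.02) became 0.0035 with library size alone, 0.080 and 0.081 with limma at pseudocounts of 1 and 0.1, 0.13 with the cluster covariate, 0.082 with the GC offset, 0.083 with the block added, and -0.16 to 0.070 over the fits that left out a library. Over those fits YAP1 in EMX1-FL was between -0.0024 and 0.30, and in EMX1-X1 WWTR1 was at its lowest -0.030 and TEAD1 between -0.034 and 0.30. Between the isoforms, with the cluster covariate, the GC offset and the GC offset with the block, YAP1 was -0.0075, -0.0031 and -0.00078, WWTR1 -0.0082, -0.14 and -0.14, and AJUBA 0.062, 0.14 and 0.14. AMOTL2 was 0.12 with either GC offset, AJUBA 0.010 with upper-quartile factors and 0.0069 with at least 10 counts. With a library left out, WWTR1 was between -0.050 and 0.33 and AJUBA between -0.066 and 0.061 between the isoforms.

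Over all genes, the DEG counts of 450 in EMX1-FL, 464 in EMX1-X1 and 263 between the isoforms were 142, 177 and 107 with limma on log2(TPM + 1), 947, 962 and 686 without a filter, 217, 214 and 121 with at least 10 counts, and 1077, 1506 and 1418 with the p alone. Leaving out EMX1-X1 replicate 1 or 2 gave 902 and 296 in EMX1-X1, and leaving out EMX1-FL replicate 1 or EMX1-X1 replicate 1, 2 or 3 gave 1125, 722, 153 and 126 between the isoforms. With few read pairs, as for ANKRD1 and VGLL3, depth limits the precision.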
